A study of Mus musculus with 6 samples.

Results

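The immunoglobulin heavy chain constant genes are 8 genes of the mouse that encode the constant part of the antibody heavy chain: Ighm (IgM), Ighd (IgD), Ighg3, Ighg1, Ighg2b and Ighg2c (the IgG subclasses), Ighe (IgE) and Igha (IgA). They were taken by symbol from 6 single-cell count tables that list 20279 genes between them, and all 8 had at least 1 count in the series. The libraries with a count of each numbered 6 for Ighm, Ighd, Ighg3 and Igha, 5 for Ighg2b, 4 for Ighg2c, and 2 each for Ighg1 and Ighe. The 6 libraries are Nanopore long-read libraries of cells labelled as spleen from female mice aged 10 weeks, C57BL/6 in the text given for the series, with no treatment or engineered allele named. They differ in how the cDNA was made: 2 libraries used a 3′ capture kit, 2 used the standard 5′ capture kit, and 2 used the 5′ kit with added nucleotides (dNTP) and longer extension times (the modified 5′ libraries). In each group replicate 2 is the library marked rep2. The number of animals behind a library is not given in the labels, so the p-values measure only the spread between these libraries, which may be technical.

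Each B cell rearranges 1 variable region, which is first joined to Ighm and, by alternative splicing of the same long precursor, to Ighd, so that a resting B cell shows both IgM and IgD with the same specificity. After activation, class switch recombination deletes the DNA between the variable region and a constant gene further along, and the cell then transcribes 1 IgG gene, Ighe or Igha in place of Ighm. Plasma cells are the antibody-secreting end stage. They transcribe 1 heavy chain gene at very high levels and shut down much of the surface programme of the B cell. In the spleen, follicular B cells are known for high surface IgD, and marginal zone B cells for high IgM and low IgD.

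In GENCODE M21 (GRCm38, the mm10 assembly that the submitters' processing notes name), the 8 genes lie on the minus strand of chromosome 12, in the order in which a switching cell meets them. Ighm (chr12:113418558-113422730) is followed, after 2233 bases, by Ighd (chr12:113406604-113416324). A gap of 45371 bases separates Ighd from Ighg3 (chr12:113356224-113361232). Then come Ighg1 (chr12:113325240-113330523), Ighg2b (chr12:113302965-113307933), Ighg2c (chr12:113285325-113288932), Ighe (chr12:113269260-113273248) and Igha (chr12:113254830-113260236). Each gene has 2 annotated transcripts. The count tables give 1 value per gene, so the secreted and membrane forms were not separated here.

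The IgG genes are copies of one another, and a count assigned to the wrong copy would look like a mixed cell, so their sequences are shown where they differ. The lines give the first 90 coding bases of each gene that led at least 1 plasma cell, of Ighd and of Ighg1, from the start of the first constant exon (CH1), 5′ to 3′ on the minus strand, from the GENCODE M21 transcripts. In the 4 IgG genes, capitals mark the positions at which the 4 are not all the same. The other sequences carry no capitals.
Ighm (chr12:113422641-113422730): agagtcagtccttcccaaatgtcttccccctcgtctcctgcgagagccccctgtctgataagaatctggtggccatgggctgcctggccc
Ighd (chr12:113416235-113416324): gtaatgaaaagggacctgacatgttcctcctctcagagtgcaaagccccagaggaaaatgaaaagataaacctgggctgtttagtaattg
Ighg3 (chr12:113361143-113361232): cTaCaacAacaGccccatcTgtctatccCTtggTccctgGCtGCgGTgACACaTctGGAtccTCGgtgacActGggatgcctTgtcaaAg
Ighg1 (chr12:113330434-113330523): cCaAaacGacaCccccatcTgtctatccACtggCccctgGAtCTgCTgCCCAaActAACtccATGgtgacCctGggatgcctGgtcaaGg
Ighg2b (chr12:113307844-113307933): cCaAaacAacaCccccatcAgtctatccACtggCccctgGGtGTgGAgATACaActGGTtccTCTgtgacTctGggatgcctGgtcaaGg
Ighg2c (chr12:113288843-113288932): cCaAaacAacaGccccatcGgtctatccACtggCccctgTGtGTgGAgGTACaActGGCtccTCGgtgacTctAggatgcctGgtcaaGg
Igha (chr12:113260147-113260236): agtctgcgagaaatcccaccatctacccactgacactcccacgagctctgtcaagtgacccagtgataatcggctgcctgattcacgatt

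The 4 IgG genes differ at 29 of these 90 positions and at 88 of the 291 positions of the whole exon. Over the longest coding sequence, Ighg2b and Ighg2c are 88.2% identical, the closest pair among the 8 genes, and the other IgG pairs are 78.2% to 80.4% identical. Of all 31-base words of the Ighg2b coding sequence, 19.3% also occur in a transcript of another gene, against 15.0% for Ighg2c, 7.72% for Ighg3 and 3.83% for Ighg1. For Ighm, Ighd, Ighe and Igha the share is 0%. The sources used here give neither the aligner nor its handling of reads that match several genes, so counts of the IgG genes, above all of Ighg2b against Ighg2c, carry that uncertainty.

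Of 20036 cell barcodes, 15578 were kept, namely those with 200 genes or more and no more than 20% of counts from mitochondrial genes. Total counts per library ran from 723341 to 2627253. In standard 5′ replicate 1 only 34.0% of barcodes passed, and the kept cells were shallower (median 332 counts) than in the other libraries (medians 482.5 to 606). The extraction text of the 3 rep2 libraries describes pancreatic islets and depletion of insulin cDNA, whereas their labels say spleen. B cells were 41.5% to 58.1% of kept cells and T cells 27.0% to 33.6% in every library. Of 19 pancreas genes, 1 to 9 had a count, with a summed level of 2.5 to 41.9 CPM (counts per 1000000, the count divided by all counts of the cells concerned and scaled). The highest value, from 9 genes, was that of modified 5′ replicate 2. There the islet hormone genes Ins2, Ins1 and Gcg were at 22.8, 7.14 and 2.85 CPM, and each was at 0 in every other library. In T cells of that library Ins2 was at 19.3 CPM. The source of these counts was not tested. Haemoglobin genes took 13.4% to 22.3% of counts where the replicate number was 1, but 0.319% to 0.524% where it was 2. Pairs of libraries shared 0 to 16 barcodes, none of them a plasma cell in both.

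Cells were gated on raw counts of genes that are not among the 8. A plasma cell had at least 5 counts of Jchain, the chain that joins IgM and IgA into polymers, and 99 kept cells passed. A B cell had at least 2 counts in all of Cd79a, Cd79b and Ms4a1 and was not a plasma cell; 8379 passed. T cells, which do not make heavy chains, served as the measure of background. For this, 4543 cells had at least 2 counts of the CD3 chains and T cell receptor constants, with none of the B cell genes or Jchain. The last condition leaves out T cells with free RNA of those genes and doublets with B cells. The background, and every value set against it, may therefore be too low for B cells. Replicates 1 and 2 of the 3′ group held 3 and 33 plasma cells, those of the standard 5′ group 8 and 20, and those of the modified 5′ group 12 and 23. Standard 5′ replicate 1 held 357 B cells, and the other libraries between 1149 and 2067. No doublet caller was used: 137 of the B cells (1.64%) also passed the T cell threshold.

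Heavy chain transcripts were split between a few plasma cells and many B cells. The 99 plasma cells held 37271 of the 60363 Ighm counts of kept cells (61.7%), 1407 of 1470 Ighg3 counts (95.7%), 2968 of 3061 Ighg2b counts (97.0%), 3811 of 3848 Ighg2c counts (98.96%) and 2212 of 2307 Igha counts (95.9%). Ighd went the other way: B cells held 5664 of its 6145 counts (92.2%) and plasma cells held 5. Ighg1 had 10 counts in 3 cells and Ighe 2 counts in 2 cells over the whole series. Ighe is under the 3 counts that a count of 0 allows, so its level was not resolved at this depth, and 8 of the Ighg1 counts came from 1 cell.

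**Figure D1:**
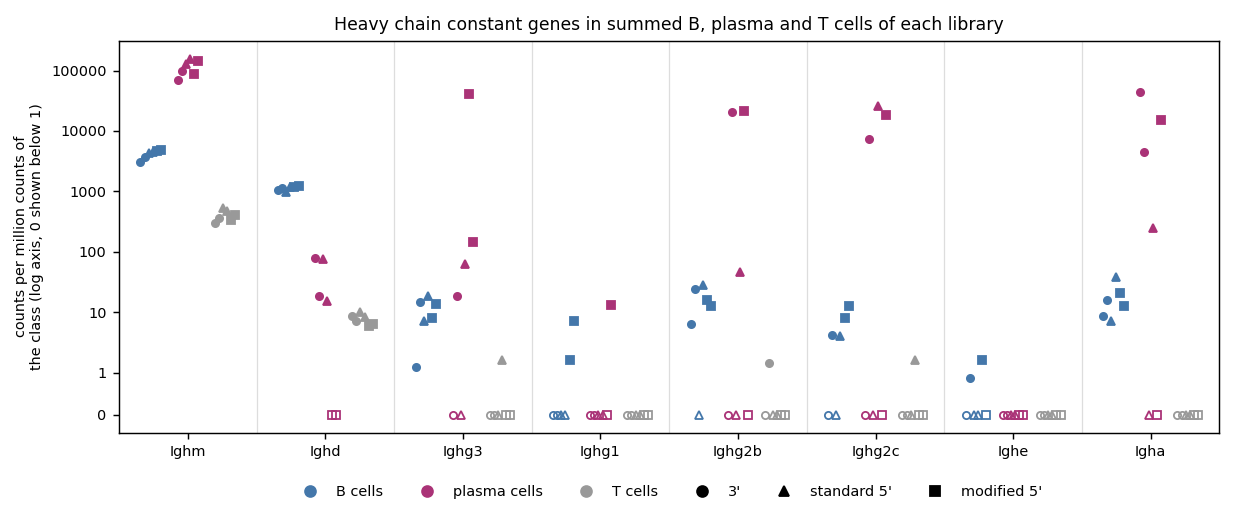
CPM of each heavy chain constant gene (log axis; open symbols at the bottom are values of 0) in the summed B cells, plasma cells and T cells of each of the 6 libraries, with marker shape giving the capture protocol. Ighm was highest in plasma cells and Ighd in B cells in every library, and Ighg3, Ighg2b, Ighg2c and Igha were high in plasma cells of some libraries and at 0 in others.

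Ighm, the first isotype every B cell makes, had the highest count of the 8 genes in each library, whether all kept cells, B cells or plasma cells were summed. In plasma cells its level was 70280 and 97546 CPM in the 3′ libraries, 128042 and 157813 in the standard 5′ libraries, and 88325 and 144099 in the modified 5′ libraries. In B cells it was 3055 and 3715, 4289 and 4563, and 4623 and 4862 CPM in the same order. In T cells it was 296 and 363, 521 and 472, and 330 and 406 CPM. The 3 classes did not overlap in any library or between libraries.

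Ighd, the splice partner of Ighm on naive cells, had 1044 and 1139, 962 and 1184, and 1189 and 1226 CPM in B cells. In plasma cells Ighd had 1 and 2, 1 and 1, and 0 and 0 counts, which is at most 78.1 CPM. In T cells its level was 8.58 and 7.11, 10.0 and 8.22, and 5.83 and 6.42 CPM. Ighd in plasma cells was thus at or under the 3 counts that a count of 0 allows in every library.

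The difference between plasma cells and B cells was tested on class sums with edgeR's quasi-likelihood test with the library as a block. Ighm was higher in plasma cells by 5.27 ± 0.31 (log2, SE; adjusted p = 5.97e-61) and Ighd lower, at -5.35 ± 0.40 (adjusted p = 3.76e-38). These were the 2 of 8 members that passed the filter on low counts, and both passed the test, where 26.7% of the 6335 genes tested did (6.38% higher and 20.3% lower in plasma cells). The fitted p-values rest on an estimate of spread shared by all genes. An exact sign-flip test over the 6 libraries gave p = 0.03125 for each gene, the smallest it allows, with Ighm higher in 6 of 6 libraries and Ighd higher in 0 of 6. Ighd had no count in plasma cells of 2 libraries, so its fitted value depends on the prior count and is no bound.

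Against T cells, B cells had more Ighm, at 3.48 ± 0.29 (log2, SE; edgeR adjusted p = 1.79e-31), and more Ighd, at 7.27 ± 0.22 (edgeR adjusted p = 1.34e-228), each in 6 of 6 libraries (exact p = 0.03125). In this comparison 40.1% of genes passed (21.1% higher and 19% lower in B cells). T cells also gave the background in single cells. Ighm had at least 1 count in 80.05% of B cells and 19.7% of T cells, and Ighd in 45.5% and 0.462%. With each cell thinned to 300 counts, leaving out 4 to 142 shallower cells per class and library, the Ighm share was 54.1% to 71.9% in B cells and 8.64% to 14.5% in T cells. For Ighd it was 23.9% to 33.4% in B cells and 0.092% to 0.658% in T cells. In standard 5′ replicate 1 the thinning left out 110 B cells and 137 T cells, with 247 and 152 remaining. That library gave the 14.5% and the 0.658% of T cells, the latter from 1 cell, and the 23.9% of B cells. Both genes were well above the T cell share in B cells of every library, Ighd by the wider ratio.

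The plasma cells were read one at a time. Of the 99, 98 had at least 10 heavy chain counts with at least 80% of them from 1 gene. In 67 of these all heavy chain counts came from 1 gene, and in 85 at least 99% did. Ighm led in 81 cells, Ighg2c in 6, Ighg2b in 5, Igha in 4 and Ighg3 in 2. None was led by Ighd, Ighg1 or Ighe, which allows a share of up to 3.03% for each (3 cells of 99, counting error only). These numbers pool the 6 libraries and cover only cells that passed the Jchain gate, so plasma cells with less Jchain are not counted. Median Jchain counts were 124 in Ighm-led, 61.5 in Ighg2c-led, 89 in Ighg2b-led, 223.5 in Igha-led and 132.5 in Ighg3-led cells. The remaining cell, in modified 5′ replicate 1, had 6 heavy chain counts and 5 Jchain counts. Lowering the required share to 50% left all 5 numbers as they were.

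**Figure D2:**
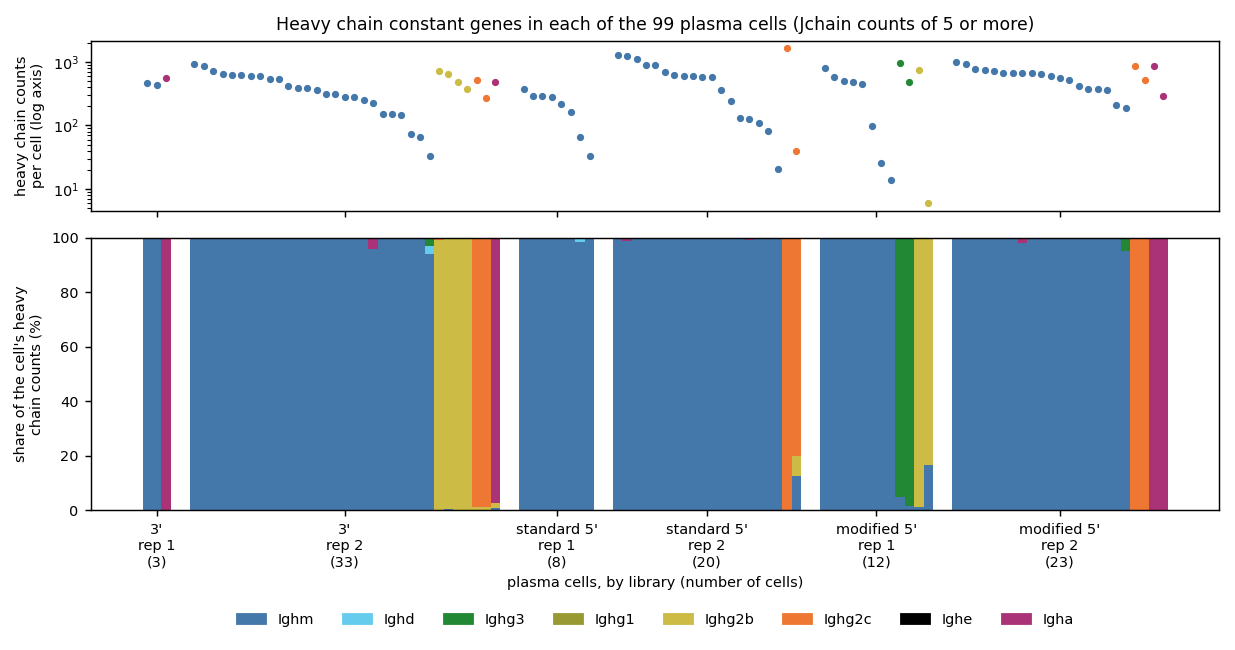
Each of the 99 plasma cells as 1 point (top, heavy chain counts per cell on a log axis, coloured by the leading gene) and 1 bar (bottom, share of those counts from each constant gene, %), grouped by library with the number of cells in brackets. Nearly every bar is of 1 colour, Ighm in 81 cells and a switched gene in the others, and the switched genes differ from library to library.

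Heavy chain transcripts made up a median of 15.9% of all counts of a called plasma cell, from 0.386% to 31.9%, with a median of 481 heavy chain counts. In B cells the 8 genes together were 0.412% to 0.615% of all counts. The Ighm-led cells held 37195 Ighm counts and 3 Ighd counts, in 3 cells. They also held 42 Igha counts in 10 cells and 17 Ighg3 counts, but only 2 of Ighg2c and 0 of Ighg2b. Cells with many Ighm counts and Jchain were thus almost without Ighd counts.

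The IgG-led cells kept the closest gene pair apart. The 5 cells led by Ighg2b held 2943 Ighg2b and 7 Ighg2c counts of 2965 heavy chain counts. The 6 led by Ighg2c held 3802 Ighg2c and 11 Ighg2b counts of 3820. Cells of either subclass thus held few counts of the other, closest gene. The most mixed cell that was called, in standard 5′ replicate 2, had 32 Ighg2c, 5 Ighm and 3 Ighg2b counts, and 18 counts of the B cell gate genes.

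Both Ighg3-led cells came from modified 5′ replicate 1. One had 916 Ighg3 counts and 46 Ighm counts, and the other 474 and 7. The 46 Ighm counts made this the cell with the most counts outside its leading gene. In the 4 Igha-led cells, Igha had 554, 470, 852 and 292 counts; 1 of these cells was in each 3′ library and 2 in modified 5′ replicate 2. These 4 cells held 2168 Igha counts beside 4 of Ighm, 9 of Ighg2b and 1 of Ighd.

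By library, Ighm led 2 of 3 and 26 of 33 plasma cells in the 3′ libraries, 8 of 8 and 18 of 20 with the standard 5′ kit, and 8 of 12 and 19 of 23 with the modified protocol. As shares of the library's plasma cells with exact binomial (Clopper-Pearson) 95% intervals, these are 66.7% (9.43% to 99.2%), 78.8% (61.1% to 91.0%), 100% (63.1% to 100%), 90% (68.3% to 98.8%), 66.7% (34.9% to 90.1%) and 82.6% (61.2% to 95.05%). The libraries with 3, 8 and 12 plasma cells give wide intervals, and no test between libraries was run. The intervals cover counting error only. The fits of plasma cells between protocols that had been planned for libraries with at least 20 plasma cells were not run, since 3 libraries held fewer.

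The Jchain threshold did not part the cells sharply, and the counts around it were as follows. The 9 kept cells with 3 or 4 Jchain counts had a median of 12 heavy chain counts (4 to 43), the 6 with 5 to 8 had 23.5 (6 to 224), and the 93 above 8 had 505 (33 to 1618). The counts of the B cell gate genes had medians of 10, 15 and 2 in the same bands. By both medians, the cells with 5 to 8 lay nearer to those below the threshold, yet they counted as plasma cells. The called cell with the lowest heavy chain share (0.386%), in 3′ replicate 2, had 18 Jchain and 16 B cell gate counts. That share is near the 0.412% to 0.615% of summed B cells. Of the 99, 66 also passed the B cell threshold. Summed over plasma cells, Cd79a was at 234 to 1498 CPM, against 3221 to 6957 CPM in B cells. Cd79a is a gene of the B cell gate, so this difference follows in part from the gate and is no check of it.

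Genes around antibody production moved with the heavy chain between B and plasma cells, and are given as counts per list. Over all genes tested, the median log2 difference of plasma minus B was -0.63, with 404 genes higher and 1287 lower. With library totals alone it was -1.40, with 239 higher and 4128 lower, while Ighm stayed higher (4.74) and Ighd lower (-6.13). Of 40 genes of antibody assembly and secretion, 38 were higher and 0 lower (median 2.77). Txndc5, a protein disulfide isomerase of the endoplasmic reticulum, was 17.7-fold higher, Derl3, a component of the degradation of misfolded proteins there, 74.4-fold, and Xbp1, the transcription factor of the secretory programme, 23.1-fold. Of 9 plasma cell regulators and surface genes that could be tested, 8 were higher and 0 lower. Of 29 B cell surface and signalling genes, 1 was higher and 25 lower: Ebf1, a B lineage transcription factor, was 13.4-fold lower, and Fcmr, the Fc receptor for IgM, 7.54-fold.

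All 4 light chain constants tested passed as higher in plasma cells, but not alike in each library. In CPM, Iglc1 was higher in plasma cells than in B cells in 6 of 6 libraries. Iglc2 was lower in plasma cells of 3′ replicate 1 (781 against 1750 CPM) and standard 5′ replicate 2 (1727 against 2194 CPM). Iglc3 was higher in 2 libraries only, modified 5′ replicate 1 (34647 against 2467 CPM) and replicate 2 (3350 against 1657 CPM), and lower in the other 4. Igkc, the kappa constant gene, rose by 4.79 (log2), from 9698 to 16440 CPM in B cells to 118226 to 364353 CPM in plasma cells, near the 5.27 of Ighm. Among 14 genes tested of the IgM to IgD choice and the secretory switch, 1 was higher and 2 lower. The higher one was Ell2, an elongation factor that favours the secreted form of the heavy chain transcript, 13.5-fold up at 3.75 ± 0.34 (log2, SE). Zfp318, which prevents termination before Ighd and so permits the IgD transcript, was one of the lower ones, at -2.06 ± 0.51 and 4.17-fold down. It stood at 77.2 to 304 CPM in B cells and 0 to 37.2 CPM in plasma cells, where every replicate 1 library had 0. In 3′ replicate 1 the 3 counts that a count of 0 allows are 234 CPM in plasma cells, beside 304 CPM in B cells. A value of 0 in so few cells thus says little. Ighd and Zfp318 both passed as lower in plasma cells, and a link between them was not tested. Of 24 tested genes of class switching and hypermutation, 0 were higher and 3 lower (Rnf8, Exosc10 and Atm). Of 17 tested genes of germline transcription and switch signals, 0 were higher and 9 lower (median -1.35), and with library totals 0 and 15. Library totals gave 37 higher and 0 lower for assembly and secretion, 8 and 1 for the regulators, 0 and 28 for the B cell genes, 4 and 0 for the light chains, 1 and 13 for the IgM to IgD list, and 0 and 17 for class switching.

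Over the 18 class sums (B, plasma and T of each library), the genes whose log2 CPM was most like that of Ighm were Iglv1 (r = 0.986), Fkbp11 (0.981), Derl3 (0.979), Adssl1 (0.968) and Pdia4 (0.968), of 6146 genes compared. The genes most like Ighd were Uvrag (0.937), Hvcn1 (0.927), Bank1 (0.908), H2-DMa (0.904) and Fgd2 (0.892). The genes most like Igha were Ighv1-26 (0.885), Herpud1 (0.863), Rbm47 (0.855), Hspa5 (0.839) and Oosp1 (0.831). The Igha values rest on few cells: the highest plasma sum, 43261 CPM in 3′ replicate 1, is 554 counts of 1 cell. In plasma sums Ighv1-26, Rbm47 and Oosp1 ran from 0 to at most 781, 156 and 312 CPM. In 3′ replicate 1 the 3 counts that a count of 0 allows are 234 CPM. These are descriptions: the sums share libraries and fall into 3 classes.

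In B cells, Ighm and Ighd were read cell by cell. Of 8379 B cells, 3083 had counts of both, 3624 of Ighm only, 726 of Ighd only and 946 of neither. Of the B cells with an Ighd count, 77.3% to 87.6% also had an Ighm count. The median B cell had 2 Ighm counts in each library except standard 5′ replicate 1, where it had 1, and 0 Ighd counts. At this depth a cell with 1 of the 2 genes cannot be told from a cell with both.

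Switched transcripts were rare in B cells. At least 1 count of an IgG gene, Igha or Ighe was found in 165 B cells, and 133 of these also had an Ighm or Ighd count. Only 17 of 8379 (0.203%) had at least 2 switched counts and none of Ighm or Ighd. Igha led in 5 of the 17, Ighg2b in 4, Ighg2c in 3, and Ighg3 and Ighg1 in 1 each; 3 were tied. In standard 5′ replicate 2, 1 B cell had 8 Igha counts of 8 heavy chain counts, and another had 9 of 12. The Ighg1-led cell, in modified 5′ replicate 2, had 8 Ighg1 counts of 8 and so held 8 of the 10 Ighg1 counts of the series. The share per library ran from 0% of 357 cells (an exact upper bound of 1.03%) to 0.348% (0.095% to 0.889%).

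The capture protocols were then compared in B cells. Ighm was higher in both 5′ groups than in the 3′ libraries. The standard 5′ libraries exceeded the 3′ libraries by 0.66 ± 0.20 (log2, SE; edgeR adjusted p = 0.00999), a fold of 1.58, and the modified 5′ libraries by 0.78 ± 0.20 (edgeR adjusted p = 0.00255), a fold of 1.72. All 4 values of the 5′ libraries lay above both 3′ values. These 2 comparisons share the 3′ libraries. The modified and the standard 5′ libraries differed by 0.12 (adjusted p = 0.993). Of all genes tested in B cells, 32.1% passed for standard 5′ against 3′ (14.4% higher, 17.6% lower), 29.6% for modified 5′ against 3′ (13.4% higher, 16.2% lower) and 0.16% for modified against standard 5′ (0.128% higher, 0.032% lower). Ighm is 1 of many genes that differed between 5′ and 3′ capture. These values use TMM scaling factors, which were 1.141 and 1.154 in the 3′ libraries and 0.9196 to 0.9566 in the 5′ libraries. With library totals alone, an alternative added after seeing the data, Ighm was higher by 0.37 (edgeR adjusted p = 0.156) and 0.47 (adjusted p = 0.0672), and neither call held. Over all genes this scaling moved the median difference for standard 5′ against 3′ from -0.11 to -0.41, and the calls from 1354 higher and 1651 lower to 729 higher and 2696 lower. For modified 5′ against 3′ the calls moved from 1256 higher and 1515 lower to 677 and 2657.

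Ighd did not pass in any of the 3 comparisons, and its direction for standard 5′ against 3′ turned with the scaling. Its differences were 0.26 (adjusted p = 0.376), 0.44 (adjusted p = 0.125) and 0.18 (adjusted p = 0.991) for standard 5′ against 3′, modified 5′ against 3′ and modified against standard 5′, on the log2 scale. With library totals alone the first was -0.032 (adjusted p = 0.929). The value of standard 5′ replicate 1 (962 CPM) lay below both 3′ values. Igha passed for standard 5′ against 3′ at 1.61 ± 0.46 (edgeR adjusted p = 0.00604), although the groups overlapped: 8.75 and 15.6 CPM in the 3′ libraries against 7.02 and 37.6 CPM in the standard 5′ libraries. The 37.6 CPM of replicate 2 are 38 counts in 23 cells. Without that library the difference was -0.54 (adjusted p = 0.875), in a fit where the remaining standard 5′ library is assumed to vary like the other groups. Without 3′ replicate 1 it was 1.40 (adjusted p = 0.0545). In all, 2 of 5 members tested passed for standard 5′ against 3′, 1 of 5 for modified 5′ against 3′ and 0 of 5 for modified against standard 5′, where 1 had an unadjusted p under 0.05 and DESeq2 called 0. Without standard 5′ replicate 2, the Ighm difference was 0.65 and no longer passed (adjusted p = 0.2).

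Ighm in T cells was 296 and 363 CPM in the 3′ libraries and 521 and 472 CPM in the standard 5′ libraries. In the modified 5′ libraries it was 330 and 406 CPM. B cells with 20 or more Ighm counts numbered 1 and 3, 0 and 4, and 5 and 10, and held 0.941% and 1.84%, 0% and 3.52%, and 11.4% and 8.65% of the Ighm counts of B cells. In T cells both standard 5′ values lay above both 3′ values, while the modified 5′ values overlapped the 3′ values. Standard 5′ replicate 1 had no B cell with 20 or more Ighm counts. The part of the T cell level and of these B cells in the Ighm result was not tested. For standard 5′ against 3′, 3 of 4 light chain constants were higher and 0 lower (median 0.73, against -0.11 over all genes), with Igkc at 9698 and 12575 CPM in the 3′ libraries and 15157 and 16440 in the standard 5′ libraries.

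The lists below are given with TMM factors, and then with library totals alone. They are to be read beside all 9374 genes tested in B cells for standard 5′ against 3′. With TMM factors 14.4% of these were higher and 17.6% lower, and with library totals 729 were higher and 2696 lower. No list was tested against these shares. Of 40 antibody assembly and secretion genes, 14 were higher and 2 lower in standard 5′ than in 3′ B cells (median 0.41). Spcs1, a signal peptidase subunit, was 2.46-fold higher, and Selenok, a selenoprotein of the endoplasmic reticulum, 3.51-fold lower. Of 29 B cell surface and signalling genes, 9 were higher and 1 lower (median 0.21). Of 31 genes of class switching and hypermutation, 5 were higher and 8 lower. Of 19 genes of germline transcription and switch signals, 4 were higher and 1 lower, and with library totals 2 and 6. Of 7 plasma cell regulators and surface genes, 2 were higher and 0 lower, and with library totals 0 and 1. With library totals alone the higher and lower members were 1 and 0 for the light chain constants, 5 and 4 for assembly and secretion, 4 and 6 for the B cell genes, and 3 and 12 for class switching. Of 14 genes of the IgM to IgD choice and the secretory switch, 0 were higher and 4 lower (median -0.30). These were Zfp318, Aff1, Pcf11 and Hnrnph1. With library totals 0 were higher and 5 lower. Zfp318 was at 304 and 189 CPM in the 3′ libraries, 77.2 and 88.2 in the standard 5′ libraries and 107 and 89.5 in the modified 5′ libraries. It fell by 1.23 ± 0.26 in standard 5′ against 3′ and by 1.04 ± 0.24 in modified 5′ against 3′ (log2, SE; edgeR adjusted p = 0.000307 and 0.000655).

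**Figure D3:**
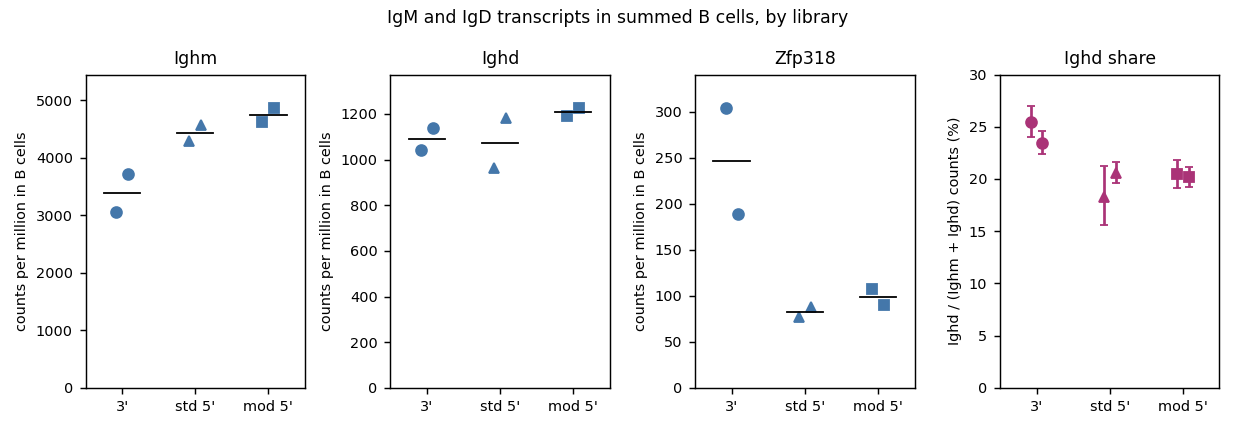
CPM of Ighm, Ighd and Zfp318 in the summed B cells of each library (points; lines are group means of 2 libraries), and Ighd as a share of Ighm plus Ighd counts (%, bars are exact 95% binomial intervals). The 4 Ighm values of the 5′ libraries lie above both 3′ values, the Zfp318 values and Ighd shares lie below them, and the Ighd values overlap.

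The balance of IgD to IgM transcripts was read as the share of Ighd in the Ighm plus Ighd counts of B cells, a ratio of counts that is not adjusted for transcript length. It was 25.5% (24.0% to 27.0%) and 23.5% (22.4% to 24.6%) in the 3′ libraries, 18.3% (15.6% to 21.3%) and 20.6% (19.6% to 21.7%) in the standard 5′ libraries, and 20.5% (19.2% to 21.8%) and 20.1% (19.2% to 21.1%) in the modified 5′ libraries, with exact 95% intervals. All 4 values of the 5′ libraries lay below both 3′ values. The difference was -5.01 percentage points for standard 5′ against 3′ and -4.17 for modified 5′ against 3′. In either case the exact permutation p was 0.333, the smallest that 2 against 2 libraries allow. Modified against standard 5′ differed by 0.843 points (exact p = 1), less than the 1.62 points (SD) between the standard 5′ replicates. Both 5′ groups together differed from 3′ by -4.59 points (exact p = 0.133, the smallest for 4 against 2). Within replicate 1 this difference was -6.08 points and within replicate 2 it was -3.10. In T cells the share was 1.56% to 2.82%. With the T cell level per cell subtracted, a background that may be too low, the difference for standard 5′ against 3′ was -5.19 points.

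A further comparison, chosen after the data had been seen, set 2 kinds of B cell in each library side by side. Fcer2a encodes CD23, a surface marker of follicular B cells. Cd9 and Dtx1 are known for expression in marginal zone B cells. B cells with a count of Fcer2a and none of the other 2 genes had an Ighd share of 31.1% and 28.5% in the 3′ libraries, 21.5% and 28.2% with the standard 5′ kit, and 31.2% and 26.5% with the modified protocol. Cells with a count of Cd9 or Dtx1 and none of Fcer2a had 16.9% and 12.03%, 14.3% and 9.09%, and 9.41% and 6.79%. The share was higher in the Fcer2a cells in 6 of 6 libraries, by 16.4 ± 5.2 points (SD, n = 6 libraries; exact sign-flip p = 0.03125, the smallest possible). The 2 groups did not overlap.

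**Figure D4:**
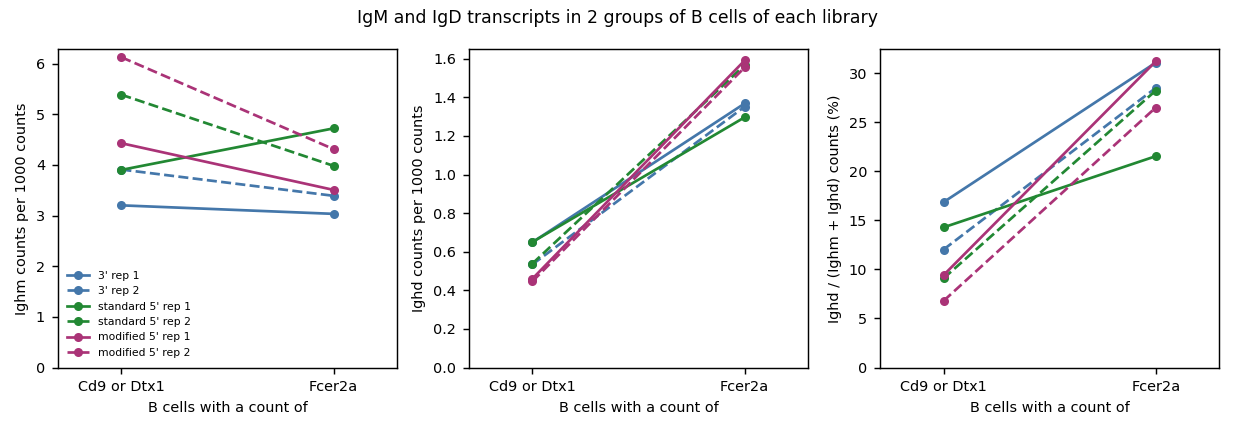
Ighm and Ighd counts per 1000 counts, and the Ighd share of Ighm plus Ighd counts (%), in B cells with a count of Cd9 or Dtx1 and in B cells with a count of Fcer2a; each line joins the 2 groups of 1 library. Ighd and its share rise from left to right in 6 of 6 libraries, while Ighm falls in 5 of 6.

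Per 1000 counts, Ighd was higher in the Fcer2a cells by 0.908 ± 0.208 (SD, n = 6; exact p = 0.03125). Ighm was lower in them in 5 of 6 libraries, by -0.668 ± 0.939 (exact p = 0.15625), and did not pass. Standard 5′ replicate 1, with 22 Fcer2a cells and 37 Cd9 or Dtx1 cells, was the exception for Ighm and had the smallest difference in the share, 7.25 points. The Cd9 or Dtx1 cells had more counts per cell, with medians of 436 to 816 against 428.5 to 579.

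Summed over all kept cells, the levels varied more between replicates than in B cells. Ighm was 2171 and 6413 CPM in the 3′ libraries, 6667 and 7835 with the standard 5′ kit, and 5114 and 8063 with the modified protocol. With edgeR, 0 of 6 members tested passed for standard 5′ against 3′ (2 with an unadjusted p under 0.05; DESeq2 called 0), where 23.3% of the 11546 genes did (12.5% higher, 10.8% lower). For modified against standard 5′ 0 of 6 passed (2 with an unadjusted p under 0.05; DESeq2 called 0), where 0% of genes did (459 unadjusted; DESeq2 called 1). For modified 5′ against 3′ 1 of 6 passed, where 18.4% of genes did (10.2% higher, 8.19% lower). With library totals alone the calls moved from 1443 higher and 1246 lower to 557 and 2641 for standard 5′ against 3′, and from 1178 and 946 to 495 and 2278 for modified 5′ against 3′. In these sums of cells, more cells of a type and more RNA per cell cannot be told apart.

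The member that passed was Ighg3, at 7.18 ± 1.70 (log2, SE; edgeR adjusted p = 0.021). Its values were 0.573 and 8.89 CPM in the 3′ libraries and 1164 and 12.8 CPM in the modified 5′ libraries. Of the 1395 Ighg3 counts of modified 5′ replicate 1, 1390 came from the 2 plasma cells described above. Without that library the difference was 1.61 (adjusted p = 0.307), and in B cells Ighg3 was at 1.25 and 14.8 CPM against 8.005 and 13.4 CPM. Without 3′ replicate 1 it was 6.43 (adjusted p = 0.0916), and with all barcodes 5.61 (adjusted p = 0.0592).

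Libraries of the same replicate number deviated together over all kept cells, so the fit with the replicate number as a block is given beside these results. With the replicate block, Ighm was higher in standard 5′ than in 3′ by 1.31 (edgeR adjusted p = 4.62e-05) and in modified 5′ than in 3′ by 1.09 (adjusted p = 0.000346). The Ighm difference over all kept cells depends on 3′ replicate 1, which held 3 plasma cells. Without the block it was 1.15 (adjusted p = 0.0712) for standard 5′ against 3′, 0.59 (adjusted p = 0.188) without 3′ replicate 1 and 2.11 (adjusted p = 0.00353) without 3′ replicate 2. For modified 5′ against 3′ the last 2 values were 0.42 (adjusted p = 0.393) and 1.94 (adjusted p = 0.00636). Within replicate 1 the log2 ratio of CPM for standard 5′ against 3′ was 1.62, and within replicate 2 it was 0.29. In the paired fit 4, 1 and 4 members passed for standard 5′ against 3′, modified against standard 5′, and modified 5′ against 3′. The other 7 of these calls were of switched genes and Ighd. Ighd was higher in modified 5′ than in 3′ by 0.52 (adjusted p = 0.0395). The switched genes were Ighg2b (-4.56) and Igha (-4.22) for standard 5′ against 3′, Igha (3.64) for modified against standard 5′, Ighg3 (5.79) for modified 5′ against 3′, and Ighg2c for both 5′ groups against 3′ (1.83 and 1.54).

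These switched genes each rested on a handful of cells per library. Ighg2c was at 0 and 320 CPM in the 3′ libraries, 0 and 855 with the standard 5′ kit, and 4.17 and 663 with the modified protocol, and a single cell held 1618 of the 1658 Ighg2c counts of standard 5′ replicate 2. Ighg2b was at 2.86 and 909, 0 and 17.5, and 632 and 7.14 CPM, with 740 of 757 counts of modified 5′ replicate 1 in 1 cell. Igha was at 322 and 203, 2.73 and 27.8, and 10.8 and 559 CPM, with 554 of 562 counts of 3′ replicate 1 in 1 cell. Every one of these high values went with at least 1 plasma cell led by that gene, and each low value with none. Read as B cells only, the 4 switched genes stayed between 0 and 37.6 CPM in all 6 libraries.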

How the data were processed

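The deposited tables hold raw counts per gene and cell, with cell barcodes in columns, as the authors deposited them; the values are whole numbers and genes with a total of 1 are listed. The mm10 assembly is named in the submitters' processing notes, and Seurat for replicate 2, neither with a tool version. The sources used here do not give the aligner, annotation, strand, use of molecular identifiers or cell calling. Library totals ran from 723341 to 2627253 counts, and all intervals cover counting error only.

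Cells with under 200 genes or over 20% mitochondrial counts were left out. Plasma cells had at least 5 Jchain counts, B cells at least 2 counts of Cd79a, Cd79b and Ms4a1, and T cells at least 2 of the CD3 and T cell receptor constant genes with none of the former. Counts were summed per library and class and tested with edgeR 4.0.16 (quasi-likelihood, TMM, filterByExpr, Benjamini-Hochberg over all genes at 0.05) in R 4.3.3. Single values were tested by exact permutation with scipy 1.17.1, two-sided. Tested on simulated B cell data for standard 5′ against 3′, over 9163 genes, the fit recovered 38% of genes changed by 1 and 97% of those changed by 2 (log2). Over all kept cells (11341 genes) it recovered 12% and 93%. Only genes of at least 20 CPM were changed, with 1 spread for all genes (dispersion 0.02575 in B cells, 0.05534 over all kept cells). The fitted dispersion of Ighm was larger, at 0.0408 and 0.1213. In B cells the switched genes were below 20 CPM. The rates are thus not those of the members. Where leaving out a library leaves a group with 1, that library is assumed to vary like the other groups.

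Alternatives were DESeq2 1.42.0, other size factors, gates and filters, all barcodes, the replicate block and leaving out each library. Fits with library totals in place of TMM factors, the subtraction of the T cell level, the joined 5′ groups, the Fcer2a comparison and the sign-flip tests of class ratios were added after seeing the data. The 8 genes, their lists and the tests were chosen with earlier results of these data known. All 8 genes are named, and up to 4 genes per list, those with the smallest adjusted p, and the 5 genes most correlated with Ighm, Ighd and Igha among those with a mean of at least 20 CPM. Same-numbered libraries deviated together over all kept cells (correlations 0.456, 0.391 and 0.241 over 11546 genes), and less so in B cells (0.106, 0.104 and 0.0244). Positions and sequences come from GENCODE M21, aligned with Biopython 1.88. Protein sequences were not used here.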

Additional observations from a re-analysis of the deposited data

Results flagged for a closer look

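Barcodes outside the cell filter also carried heavy chain counts. In the 3 replicate 2 libraries, 13 barcodes with at least 5 Jchain counts had under 200 genes, and all 13 were led by Ighm. They held 359 heavy chain counts in the 3′ library, 192 in the standard 5′ library and 274 in the modified 5′ library, between 9 and 186 per barcode. In 3′ replicate 2, 1 barcode outside the filter held 26 Ighg3 counts of 86 counts in all, with 16 genes, 42 Igkc counts and 4 Jchain counts. A second held 24 Ighg3 counts of 131, with 31 genes, 69 Igkc counts and 3 Jchain counts. The kept cells of that library held 22 Ighg3 counts, and no plasma cell among them was led by Ighg3.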

How the results depend on the processing

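In B cells, Ighm was higher in standard 5′ and in modified 5′ than in 3′ libraries under every alternative run (differences on the log2 scale). The call for standard 5′ was lost without standard 5′ replicate 2, and both calls were lost with library totals in place of TMM factors, an alternative added after seeing the data. With library totals, 1 member (Igha) was called in B cells for standard 5′ against 3′ and 0 for modified 5′ against 3′. Ighd for standard 5′ against 3′ then turned to -0.032 in B cells and -0.17 over all kept cells, and Ighg2b for modified 5′ against 3′ to -0.25 in B cells. The replicate block changed no call of a member in B cells, where it gave Ighm 0.66 and 0.78. Over all kept cells it gave 4, 1 and 4 members called for standard 5′ against 3′, modified against standard 5′, and modified 5′ against 3′, against 0, 0 and 1 without it; it turned Ighg2b to 0.70 and Igha to -0.58 for modified 5′ against 3′. Without a filter on low counts, 5, 3 and 4 members were called over all kept cells, 3 in B cells for modified 5′ against 3′, and 6 each for plasma against B and B against T cells. DESeq2 called 1 member in B cells for standard 5′ against 3′. With all barcodes, 0 were called for modified 5′ against 3′, Ighg3 for standard 5′ against 3′ became -0.35, and Ighm and Ighd for modified against standard 5′ became 0.0030 and -0.012.

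Leaving out 1 library gave 0 to 1, 0 to 1 and 0 to 2 members called over all kept cells in the same order, 0 to 4 (standard 5′ against 3′) and 1 to 3 (modified 5′ against 3′) in B cells, and 2 to 5 for plasma against B and for B against T cells. Some member differences changed sign when 1 library was left out, and their ranges over the libraries left out follow, with the library at which the sign changed. For standard 5′ against 3′ over all kept cells, Ighg2b ran from -12.32 to 2.52 (3′ replicate 2), Ighd from -0.11 to 0.50, Ighg3 from -0.49 to 4.28 and Ighg2c from -10.81 to 12.46 (each standard 5′ replicate 2). For modified against standard 5′, Ighm ran from -0.51 to 0.11 and Ighg2b from -0.89 to 12.20 (both modified 5′ replicate 1), Ighg2c from -6.70 to 12.24 (standard 5′ replicate 2, and 0.54 without modified 5′ replicate 1) and Igha from -0.91 to 6.62 (modified 5′ replicate 2). For modified 5′ against 3′, Ighg2b ran from -5.69 to 7.10 (3′ replicate 2, and 0.89 without modified 5′ replicate 2), Ighg2c from -4.83 to 12.02 and Igha from -4.18 to 1.35 (both modified 5′ replicate 2).

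In B cells, the sign changes without standard 5′ replicate 2 were those of Ighg3 (-0.053 to 3.82), Ighg2b (-6.51 to 2.10) and Igha (-0.54 to 2.11) for standard 5′ against 3′, and of Ighg3 (-1.05 to 0.73), Ighg2b (-1.02 to 6.66) and Igha (-1.34 to 1.22) for modified against standard 5′. Ighd for modified against standard 5′ ran from -0.0030 (without standard 5′ replicate 1) to 0.39. For modified 5′ against 3′, Ighg3 ran from -0.020 to 3.26 and Ighg2b from -0.41 to 1.40 (both 3′ replicate 1); Ighg2b was -0.096 without modified 5′ replicate 1 and -0.0057 with at least 3 B gate counts.

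The Ighd share for modified against standard 5′ was -0.299 to 1.98 percentage points when 1 library was left out, and -0.873 with all barcodes. The cause of these changes was not tested. The number of plasma cells, 3 to 33 per library, limits every value of the switched genes.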
